A study of Mus musculus with 13 samples.

Results

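The 10 genes described here encode the core of VEGF and angiopoietin signalling, which are the VEGF receptors Flt1, Kdr and Flt4, the co-receptor Nrp1, the ligand Vegfa, the receptors Tek and Tie1, the phosphatase Ptprb and the ligands Angpt1 and Angpt2. They were chosen by name, with earlier results of these data known, and make up 10 of the 37785 genes counted. Each had enough counts to enter the test, as 10 of 21170 genes. RNA came from wild-type C57BL/6 mouse brain after magnetic enrichment of cells bearing Pdgfra, a surface receptor of oligodendrocyte precursor cells (OPCs), and was sequenced as total RNA in bulk.

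The libraries came from 4 ages, with no treatment and no genetic change in any group. There were 3 at embryonic day 16 (E16), 3 at postnatal day 12 (P12), 3 at postnatal day 80 (P80) and 4 at postnatal day 310 (P310). The age field of the labels gives ages a few days from these for some P80 and all P310 libraries. Beads that remove myelin debris were used for the adult ages only (P80, P310), so this step and age cannot be told apart between P12 and adults. P12 replicates 2 and 3 were summed and counted as 1 sample (P12 replicate 2-3), because their counts differed far less than those of any other pair. Their chi-square per degree of freedom was 3.88, against 30.9 to 210 in the other 14 pairs within an age. This left 3, 2, 3 and 4 samples. The series text gives 3 to 4 mice per age without tying each library to a mouse, so the p-values measure the spread between these samples.

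VEGF-A is secreted by many cell types, including neural and glial cells, and acts on the lining of blood vessels through the tyrosine kinase receptor Kdr. Flt1 binds VEGF-A tightly but signals weakly, and its shed or soluble form acts as a trap for the ligand. In the angiopoietin system, Angpt1 activates the receptor Tek and steadies vessels, Angpt2 can oppose it at sites of remodelling, Tie1 modulates Tek, and Ptprb (VE-PTP) dephosphorylates both Tek and endothelial junction proteins. In the brain, vessels grow from before birth through the first postnatal weeks, and the adult vessel lining is largely quiescent. OPCs themselves are not known as a main source of Kdr, Flt1 or Tek.

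Total counts ranged from 8669521 to 25810455 per library, and 3 counts, the upper limit that a count of 0 allows, correspond to between 0.0635 and 0.396 CPM in the 12 samples. CPM are counts scaled to a common library size by TMM, and such limits cover counting error only. Mitochondrial genes took 1.52% to 3.54% of a library at E16, 4.44% to 10.8% at P12, 12.8% to 23.5% at P80 and 18.3% to 34.4% at P310. This share moved with age beside every result below, and its part in them was not tested apart from a fit without mitochondrial, ribosomal and haemoglobin genes, in which 7 members were called at P12 over E16 as before, 2 in place of 1 between P80 and P12, and 2 in place of 3 between P310 and P12. Pdgfra, the gene of the sorting antigen, had 13.7 to 93.6 CPM across the 12 samples, and the OPC transcription factor Olig2 had 0.13 to 15.8 CPM. Summed CPM of 11 OPC markers was 582 to 714 at E16, 674 to 1022 at P12, 338 to 483 at P80 and 194 to 373 at P310. The same sum over 8 endothelial genes (Pecam1, Cdh5, Cldn5, Esam, Egfl7, Erg, Eng and Emcn) was 35.5 to 53.3 at E16, 2492 to 2982 at P12, 2406 to 2973 at P80 and 2045 to 4055 at P310. The level of the vessel lining's genes was thus low at E16 and of one order at the 3 postnatal ages, whereas the OPC sum was lower at P80 and P310 than at P12. A few genes carried much of the OPC sum, such as Ptprz1 (340 CPM) and Vcan (278 CPM) in E16 replicate 1. In P12 replicate 2-3 they were Bcan (435 CPM) and Ptprz1 (313 CPM). Not every marker followed the sum. Cspg4 had 54.2 and 64.9 CPM at P12, 59.1 to 116 CPM at P80 and 54.7 to 82.7 CPM at P310, and Pdgfra overlapped between these ages. In bulk RNA, fewer cells of a type and less RNA per cell cannot be told apart. P310 replicate 2 stood apart with 39223 CPM of the myelin gene Mbp, and P12 replicate 1 with 3398 CPM, against 11.6 to 319 CPM in the other samples. The members' calls are given with and without these libraries, and for the other named genes the calls that end without P12 replicate 1 are stated.

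The upstream DNA of the receptor pair that parted after P12 and of their ligand is shown first, because the results below turn on these genes. The windows hold the 250 bases before the RefSeq transcription start on GRCm38.p6, written 5′ to 3′ on the gene's own strand. Capitals mark matches, on either strand, to the hypoxia response element cores ACGTG and GCGTG, the ETS motifs CCGGAA and AGGAAG, the GATA motif AGATAA, the FOX motif TGTTTAC or the SOX motif ACAATG. Flt1 lies at chr5:147726012-147726261 (minus strand), Kdr at chr5:75978456-75978705 (minus strand) and the first of 2 Vegfa starts at chr17:46032378-46032627 (minus strand).
Flt1: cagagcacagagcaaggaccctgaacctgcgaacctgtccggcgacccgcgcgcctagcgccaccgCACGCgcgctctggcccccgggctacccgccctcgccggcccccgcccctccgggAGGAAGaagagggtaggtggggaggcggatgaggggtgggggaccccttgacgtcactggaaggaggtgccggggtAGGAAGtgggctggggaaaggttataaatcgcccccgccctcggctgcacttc
Kdr: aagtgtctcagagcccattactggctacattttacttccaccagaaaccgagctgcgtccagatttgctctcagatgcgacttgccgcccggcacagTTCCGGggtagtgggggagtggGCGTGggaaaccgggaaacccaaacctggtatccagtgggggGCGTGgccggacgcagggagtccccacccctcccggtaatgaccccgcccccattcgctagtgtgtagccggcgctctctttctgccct
Vegfa: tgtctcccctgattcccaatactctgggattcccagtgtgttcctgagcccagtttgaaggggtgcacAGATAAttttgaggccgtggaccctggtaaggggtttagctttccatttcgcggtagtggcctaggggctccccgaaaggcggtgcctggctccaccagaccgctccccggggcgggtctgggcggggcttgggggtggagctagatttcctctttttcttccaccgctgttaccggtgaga
The Flt1 window held 1 match to GCGTG, on the reverse strand and so written as its complement, and 2 to AGGAAG. The Kdr window held 2 matches to GCGTG and 1 to CCGGAA on the reverse strand. The Vegfa window held AGATAA and no other match. The window of its second start, not shown, lies within the Vegfa gene itself (chr17:46025164-46025413) and held ACGTG and GCGTG. The Tek and Flt4 windows held none of the 7 motifs, the Tie1 window held AGGAAG, and the Nrp1 window held GCGTG and AGGAAG. Of 32851 windows of this length at RefSeq starts, 28.2% held GCGTG, 16.6% ACGTG, 29.5% AGGAAG, 12% CCGGAA, 9.99% AGATAA, 3.17% TGTTTAC and 10.7% ACAATG. A match is a description of the letters and does not show a binding site. RefSeq windows were found for 7 of the 10 genes, which leaves out Ptprb, Angpt1 and Angpt2.

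The members fell into groups by their course over the 4 ages. The 5 tyrosine kinase receptors and the phosphatase Ptprb were low at E16 and high from P12 on, and at P310 Flt1 was higher and Kdr lower than at P12. The ligand Vegfa and the co-receptor Nrp1 had the highest CPM of the 10 at E16, and no difference between ages passed in either, although Vegfa passed at P12 over E16 in some alternatives. Angpt2 was highest at P12, and Angpt1 stayed low throughout. In edgeR's quasi-likelihood test of any difference between the 4 ages, 7 of the 10 were called (Flt1, Kdr, Flt4, Tek, Tie1, Ptprb and Angpt2), where 37.1% of all genes tested were called (adjusted p under 0.05, Benjamini-Hochberg over 21170 genes). The adjusted p was 0.0724 for Angpt1, 0.195 for Nrp1 and 0.215 for Vegfa.

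**Figure D1:**
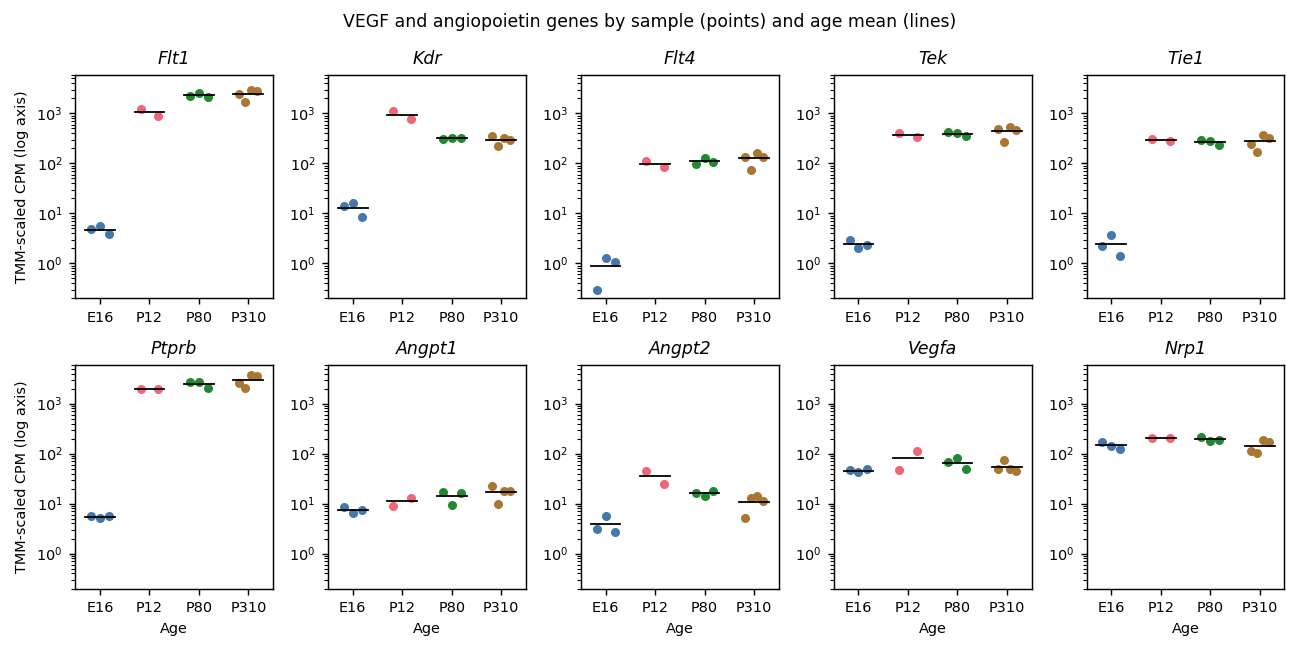
TMM-scaled CPM (log axis) of each of the 10 genes by age, with 1 point per sample and a line at each age mean. Flt1, Kdr, Flt4, Tek, Tie1 and Ptprb lie below 17 CPM at E16 and above 70 CPM at every later age, whereas Vegfa lies between 42.6 and 113 CPM and Nrp1 between 105 and 218 CPM over all ages.

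Kdr (ENSMUSG00000062960, chr5:75932827-75978458, minus strand), which codes for the main signalling receptor of VEGF-A, had 14.1, 16.05 and 8.37 CPM at E16, 1113 and 769 CPM at P12, 310, 320 and 322 CPM at P80, and 359, 223, 326 and 290 CPM at P310. P12 was the peak, and no P80 or P310 sample reached the lower P12 sample. Against E16, Kdr at P12 was higher by 6.20 ± 0.32 on the log2 scale (SE; edgeR adjusted p = 6.73e-09). At P80 it averaged 317 ± 6.68 CPM (SD, n = 3), against 941 ± 243 CPM at P12 (n = 2), a log2 change of -1.57 ± 0.27 (edgeR adjusted p = 0.00854). At P310 it averaged 299.5 ± 58.4 CPM (n = 4), a log2 change of -1.65 ± 0.25 from P12 (edgeR adjusted p = 0.00211). Both falls rest in part on P12 replicate 1, the higher of the P12 samples. Without it, the log2 change was -1.29 at P80 (edgeR adjusted p = 0.166) and -1.37 at P310 (edgeR adjusted p = 0.0624). The P80 call also ended without P80 replicate 3 (-1.52, edgeR adjusted p = 0.0598). Without P12 replicate 1 and P310 replicate 2 together, an alternative chosen after seeing the data, the changes were -1.26 (edgeR adjusted p = 0.0578) and -1.23 (edgeR adjusted p = 0.0522).

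Flt1 (ENSMUSG00000029648, chr5:147561604-147726011, minus strand), the high-affinity and weakly signalling receptor, had 4.97, 5.49 and 3.83 CPM at E16, 1227 and 870 CPM at P12, 2200, 2606 and 2106 CPM at P80, and 2484, 1722, 2963 and 2782 CPM at P310. Every adult sample lay above both P12 samples, the opposite of Kdr. The gene-level counts do not separate the soluble from the full-length transcript. Flt1 at P12 was higher than at E16 by 7.78 ± 0.33 on the log2 scale (SE; edgeR adjusted p = 4.74e-09). At P80 it averaged 2304 ± 266 CPM, against 1048 ± 253 CPM at P12, a log2 difference of 1.14 ± 0.28 that did not pass the threshold (edgeR adjusted p = 0.0624). At P310 it averaged 2488 ± 547 CPM and was higher than at P12 by 1.25 ± 0.27 (edgeR adjusted p = 0.0218). The P310 call ended when P12 replicate 1 (edgeR adjusted p = 0.0789), P12 replicate 2-3 (0.186), P310 replicate 3 (0.0507) or P310 replicate 4 (0.0514) was left out, while the log2 difference stayed between 1.02 and 1.51. Without P12 replicate 1 and P310 replicate 2 together it was 1.42 at P80 (edgeR adjusted p = 0.0358) and 1.67 at P310 (edgeR adjusted p = 0.0128).

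Flt4 (ENSMUSG00000020357, chr11:49609263-49652739, plus strand) codes for the receptor of VEGF-C and VEGF-D, best known from lymphatic endothelium and also present in growing blood vessels. It had 0.29, 1.27 and 1.06 CPM at E16, 112 and 83.6 CPM at P12, 97.9, 126 and 105 CPM at P80, and 137, 73.4, 159 and 135 CPM at P310. The lowest E16 value rests on 4 counts, and the postnatal ages overlapped. The P12 level exceeded that at E16 by 6.77 ± 0.46 on the log2 scale (SE; edgeR adjusted p = 6.98e-08), and no later comparison was called. Of the lymphatic marker genes, Lyve1 had 0.33 to 7.16 CPM, Ccl21a 0.14 to 3.97 CPM and Prox1 1.61 to 63.3 CPM in the postnatal samples, none of them at 0, and the list of 5 summed to 28.1 to 106 CPM there. Their part in the Flt4 level was not tested.

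Nrp1 (ENSMUSG00000025810, chr8:128358604-128503363, plus strand) codes for a co-receptor of VEGF-A and of class 3 semaphorins that neurons, glia and vessels all use. It had 171, 145 and 123 CPM at E16, 206 and 205 CPM at P12, 218, 176 and 188 CPM at P80, and 112, 105, 188 and 171 CPM at P310. Both P12 samples lay above all E16 and all P310 samples. The log2 difference was 0.49 ± 0.26 for P12 over E16 (SE; edgeR adjusted p = 0.186) and -0.51 ± 0.25 for P310 over P12 (edgeR adjusted p = 0.427), and neither was called. Of its exon bases, 80 (0.818%) are shared with the microRNA gene Mir1903, which had 3 to 23 counts per library.

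Vegfa (ENSMUSG00000023951, chr17:46016993-46032369, minus strand), the ligand of Flt1, Kdr and Nrp1, had 46.2, 42.6 and 48.5 CPM at E16, 48.1 and 113 CPM at P12, 68.5, 80.2 and 49.2 CPM at P80, and 48.3, 75.1, 49.3 and 44.0 CPM at P310. The 2 P12 samples were further apart than the means of any pair of ages. P12 averaged 80.6 ± 46.1 CPM, against 45.8 ± 2.96 CPM at E16, a log2 difference of 0.82 ± 0.34 (SE; edgeR adjusted p = 0.0866). Without P12 replicate 1 it was 1.31 and passed (edgeR adjusted p = 0.0130), and without P12 replicate 2-3 it was 0.07. Vegfa passed in this comparison in 5 of 23 alternatives, with adjusted p between 0.00294 and 0.943 over all of them, among them limma-voom, the fit to these 2 ages alone and the fit with P12 replicates 2 and 3 apart. The last of these fits counts as separate samples the P12 pair that was summed elsewhere because it differed so little. The fits without P12 replicate 1 leave P12 with replicate 2-3 alone, the sample at 113 CPM. No comparison of postnatal ages was called for Vegfa. Without P12 replicate 1 and P310 replicate 2 together, P310 was lower than P12 by a log2 difference of -1.25 (edgeR adjusted p = 0.0497).

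Tek (ENSMUSG00000006386, chr4:94739289-94874976, plus strand), the angiopoietin receptor, had 2.95, 2.05 and 2.36 CPM at E16, 397 and 339 CPM at P12, 425, 400 and 352 CPM at P80, and 487, 269, 538 and 467 CPM at P310. Tie1 (ENSMUSG00000033191, chr4:118471191-118490061, minus strand), its partner without a known angiopoietin of its own, had 2.23, 3.74 and 1.42 CPM at E16, 309 and 279.7 CPM at P12, 297, 285 and 237 CPM at P80, and 245, 171, 374 and 326 CPM at P310. For both receptors the postnatal ages overlapped, and the lowest postnatal sample was P310 replicate 2. Tek at P12 was higher than at E16 by 7.23 ± 0.32 on the log2 scale (SE; edgeR adjusted p = 4.74e-09) and Tie1 by 6.90 ± 0.41 (edgeR adjusted p = 2.39e-08). Among the postnatal ages no difference in either was called, and the largest was 0.26 ± 0.25 for Tek at P310 over P12 (edgeR adjusted p = 0.795).

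Ptprb (ENSMUSG00000020154, chr10:116275523-116389535, plus strand), the phosphatase that restrains Tek, had 5.61, 5.07 and 5.60 CPM at E16, 1959 and 1979 CPM at P12, 2739, 2708 and 2053 CPM at P80, and 2558, 2099, 3765 and 3650 CPM at P310. All 7 adult samples lay above both P12 samples. At P12 it exceeded E16 by 8.50 ± 0.34 on the log2 scale, the largest change of the 10 genes in any comparison (SE; edgeR adjusted p = 4.48e-09). The mean was 3018 ± 819 CPM at P310, against 1969 ± 13.9 CPM at P12, a log2 difference of 0.62 ± 0.26 that did not pass (edgeR adjusted p = 0.323). It passed in 1 of 23 alternatives.

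Angpt2 (ENSMUSG00000031465, chr8:18690263-18741562, minus strand), the context-dependent antagonist that endothelial cells release during remodelling, had 3.17, 5.61 and 2.71 CPM at E16, 45.7 and 24.2 CPM at P12, 16.5, 14.2 and 18.01 CPM at P80, and 5.15, 12.8, 14.1 and 11.3 CPM at P310. The ages did not overlap at any step, with P12 highest and each adult age below the one before it. P12 was higher than E16 by 3.18 ± 0.47 on the log2 scale (SE; edgeR adjusted p = 1.38e-04). At P80 it averaged 16.25 ± 1.92 CPM, against 34.9 ± 15.2 CPM at P12, a log2 difference of -1.10 ± 0.45 (edgeR adjusted p = 0.412). At P310 it averaged 10.8 ± 3.95 CPM, a log2 change of -1.69 ± 0.42 from P12 that passed at the edge of the threshold (edgeR adjusted p = 0.0499). That call was lost when any 1 of the 12 samples was left out, and it held in 4 of 23 alternatives in all, with adjusted p between 0.00360 and 0.756. Without P12 replicate 1 and P310 replicate 2 together, the change was -1.23 (edgeR adjusted p = 0.537).

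Angpt1 (ENSMUSG00000022309, chr15:42424723-42676977, minus strand), the Tek agonist supplied mainly by mural and mesenchymal cells, had 8.42, 6.46 and 7.37 CPM at E16, 9.14 and 12.999 CPM at P12, 17.2, 9.39 and 16.3 CPM at P80, and 22.4, 10.01, 18.3 and 17.7 CPM at P310. Every postnatal sample lay above every E16 sample, and the postnatal ages overlapped. The difference of P12 from E16 was 0.58 ± 0.41 on the log2 scale (SE; edgeR adjusted p = 0.328), and none of the 4 pairwise comparisons was called. Of its exon bases, 737 (14.2%) lie in exons of the antisense gene Gm17473, which had 15 to 78 counts per library beside 76 to 361 for Angpt1. The authors counted without strand, so reads in those bases count for both genes.

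Taking the pairs of ages in turn, 7 of the 10 genes were called higher at P12 than at E16, where 16.7% of all genes were called higher, 10.5% lower and 27.2% in either direction. The samples did not overlap for 9 of the 10, all higher at P12, a pattern that 30.9% of all genes showed. For P80 against P12, Kdr was the 1 call, lower at P80, where 1.02% of all genes were called lower and 0.406% higher. Flt1 and Ptprb lay higher without overlap, as 11.1% of all genes did, and Kdr and Angpt2 lower, as 15.5% did. For P310 against P12, Flt1 was called higher (0.713% of all genes) and Kdr and Angpt2 lower (1.79% of all genes), 3 of the 10 where 2.51% of all genes were called in either direction. Samples did not overlap for Flt1 and Ptprb, higher at P310 as for 8.28% of all genes, and for Kdr, Angpt2 and Nrp1, lower as for 11.6%. These comparisons share the P12 samples, and the 10 genes were chosen with earlier results of these data known.

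Markers of other cell types moved beside the rise at P12 over E16. Of 8 immature neuron markers, 8 were called lower, and their sum was 239 to 258 CPM at P12, against 5969 to 7188 CPM at E16. Called higher were 10 of 12 mural markers (1034 to 1304 CPM at P12, against 194 to 285 CPM at E16), 8 of 10 astrocyte markers (2919 to 3401 against 458 to 528 CPM) and 7 of 8 microglial markers (871 to 948 against 72.8 to 105 CPM). With P12 replicate 1 left out, calls held for 6 of these 8 immature neuron markers, 9 of the 10 mural markers, and all 8 astrocyte and 7 microglial markers. The part of these cells in the members' levels was not tested.

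P310 and P80 were not told apart in any of the 10 genes by edgeR's quasi-likelihood test, where 0 of 21170 genes were called (0% of all genes). None of the 10 had an unadjusted p under 0.05 either, against 1162 of all genes, and DESeq2 called 28 genes and limma 0, with no member among them. The largest log2 differences of P310 from P80 were -0.58 ± 0.39 for Angpt2 and -0.43 ± 0.22 for Nrp1 (SE). Angpt2 was the only member whose samples did not overlap between these ages, lower at P310 as 2.59% of all genes were, and none lay higher, as 2.27% did.

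**Figure D2:**
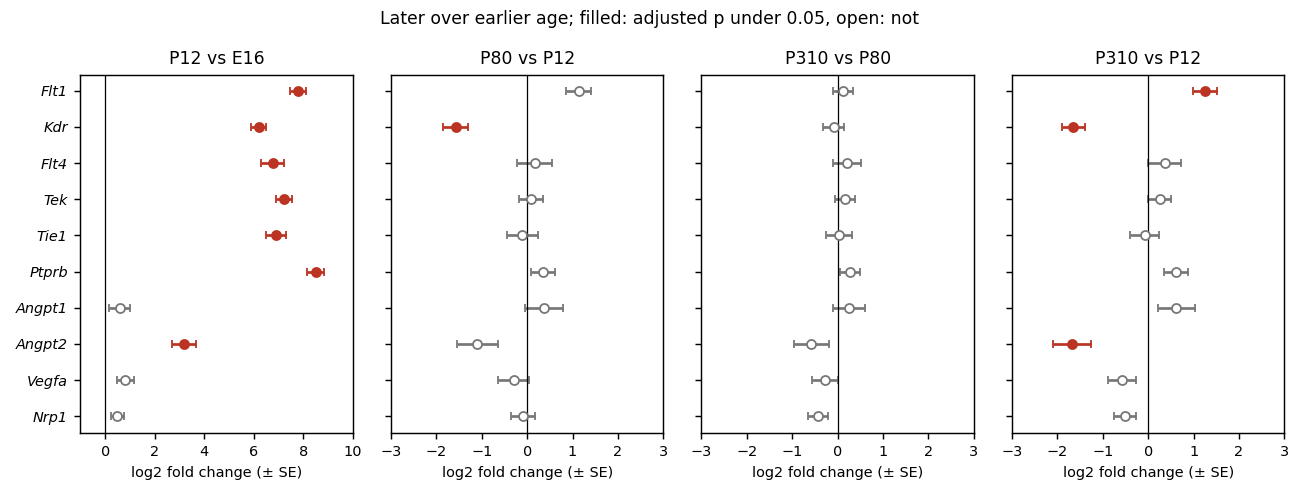
Log2 fold change of the later over the earlier age for each gene (points, with bars of 1 SE), 1 panel per comparison, where filled points passed an adjusted p of 0.05 in edgeR and open points did not. The rise at P12 over E16 reaches 8.50 for Ptprb, and after P12 the filled points are Kdr in both adult comparisons and Flt1 and Angpt2 at P310.

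Kdr and Flt1 were also set against each other within each sample, as the ratio of their counts per base of all exons of the gene. This ratio was chosen after the values were seen and has no test. Kdr over Flt1 was 4.25, 4.37 and 3.27 at E16, 1.36 and 1.32 at P12, 0.211, 0.183 and 0.229 at P80, and 0.216, 0.194, 0.165 and 0.156 at P310. Kdr thus outnumbered Flt1 per length in every E16 and P12 sample and was at most 0.229 of it in every adult sample. Before scaling by length, Kdr was below Flt1 in both P12 samples (1113 and 769 CPM, against 1227 and 870 CPM). The order at P12 thus rests on the exon lengths used, 9030 bases for Kdr and 13504 for Flt1. P12 replicate 1, which lifts the Kdr level at P12, had nearly the same ratio as P12 replicate 2-3, since Flt1 was higher there as well. The log2 difference of the ratio was -2.70 for P80 against P12 and -0.19 for P310 against P80.

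The ligands and the Tie partners gave ratios of wider spread. Angpt2 over Angpt1, also per length, averaged 0.759 ± 0.405 at E16, 4.84 ± 3.13 at P12, 1.68 ± 0.405 at P80 and 1.03 ± 0.608 at P310 (SD). The P12 mean comes from samples at 7.05 and 2.62, both above every sample of the other ages, the highest of which had 2.13. Tie1 over Tek was 0.768 ± 0.0311 at P12, 0.666 ± 0.0196 at P80 and 0.607 ± 0.0880 at P310. Ptprb over Tek was 0.795 ± 0.108 at E16, 1.90 ± 0.224 at P12, 2.24 ± 0.168 at P80 and 2.46 ± 0.428 at P310, so that the phosphatase outnumbered its substrate per length in every postnatal sample and in no E16 sample.

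**Figure D3:**
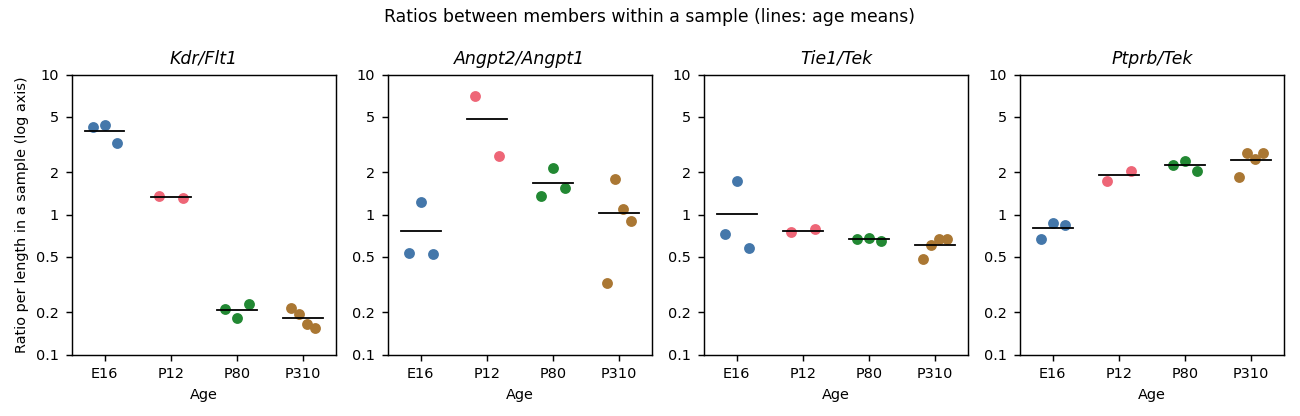
Ratios between pairs of the genes per base of all exons of the gene (log axis) by age, 1 point per sample with a line at each age mean. Kdr over Flt1 lies between 3.27 and 4.37 at E16 and between 0.156 and 0.229 in the 7 adult samples.

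Since the endothelial list differed so much between E16 and later ages, each gene was also set against the vessel lining of its own sample, as its log2 CPM minus the mean log2 CPM of the 8 endothelial genes named above. None of those 8 was called between any pair of postnatal ages, and all 8 were called higher at P12 than at E16, with a median log2 change of 6.54. Their uncalled log2 changes ran from -0.56 for Cldn5 to 0.89 for Emcn at P80 against P12. At P310 against P12 they ran from -0.25 for Cldn5 to 0.87 for Egfl7. The called changes at P12 over E16 spread more widely, from 4.1999 for Emcn to 8.26 for Cldn5. On this scale Kdr was 1.93 ± 0.502 at E16, 1.93 ± 0.154 at P12, 0.27 ± 0.168 at P80 and 0.13 ± 0.266 at P310 (SD). The P12 and E16 means thus differed by less than the SD, and the adult means were lower. Kdr rose at P12 over E16 by more than Emcn, Cdh5 and Esam and by less than the other reference genes. The closeness of its E16 and P12 means therefore depends on the reference genes chosen. Flt1 was 0.56 ± 0.290 at E16, 2.09 ± 0.129 at P12, 3.13 ± 0.0682 at P80 and 3.17 ± 0.0843 at P310. All 7 adult samples lay above both P12 samples for Flt1 and below them for Kdr. An exact permutation test of an F statistic over the 9 postnatal samples gave a p of 0.0135 for each of the 2 genes, where the smallest p it allows is 0.000794. After adjustment over all 21170 genes these p became 0.517, and 0 genes passed, with the smallest at 0.395.

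By the same exact permutation test, unadjusted p was 0.0159 for Angpt2, 0.0183 for Nrp1 and 0.0397 for Ptprb. With Flt1 and Kdr, 5 of the 10 members had an unadjusted p under 0.05, where 7.61% of all genes did. Angpt2 relative to the vessel lining was -2.86 ± 0.425 at P12, -4.01 ± 0.326 at P80 and -4.72 ± 0.749 at P310. Nrp1 was -0.24 ± 0.219 at P12, -0.45 ± 0.245 at P80 and -0.95 ± 0.211 at P310. Ptprb had a higher mean at each later age, with 3.02 ± 0.232 at P12, 3.24 ± 0.118 at P80 and 3.44 ± 0.151 at P310. The count of 5 became 1 without P12 replicate 1 and 3 without P12 replicate 2-3 or without P80 replicate 1.

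Tek relative to the vessel lining was 0.60 ± 0.0620 at P12, 0.57 ± 0.109 at P80 and 0.66 ± 0.141 at P310 (exact permutation p = 0.708). Flt4 was -1.33 ± 0.0768, -1.27 ± 0.150 and -1.16 ± 0.146 at P12, P80 and P310 (exact permutation p = 0.382), and Tie1 was 0.28 ± 0.120, 0.05 ± 0.0988 and -0.01 ± 0.123 (exact permutation p = 0.0690). The age means of Tek thus lay within 1 SD of each other, while the P12 mean of Tie1 lay above its adult means by more than 1 SD. Vegfa and Angpt1 varied more between samples on this scale than Tek, Flt4 and Tie1, as did Angpt2. Their exact permutation p was 0.586 for Vegfa and 0.610 for Angpt1. The source of this spread was not tested. Comparing a pair of ages alone could not reach 0.05 on this scale, as the smallest exact p is 0.2 for P12 against E16 and for P80 against P12, 0.133 for P310 against P12 and 0.0571 for P310 against P80.

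**Figure D4:**
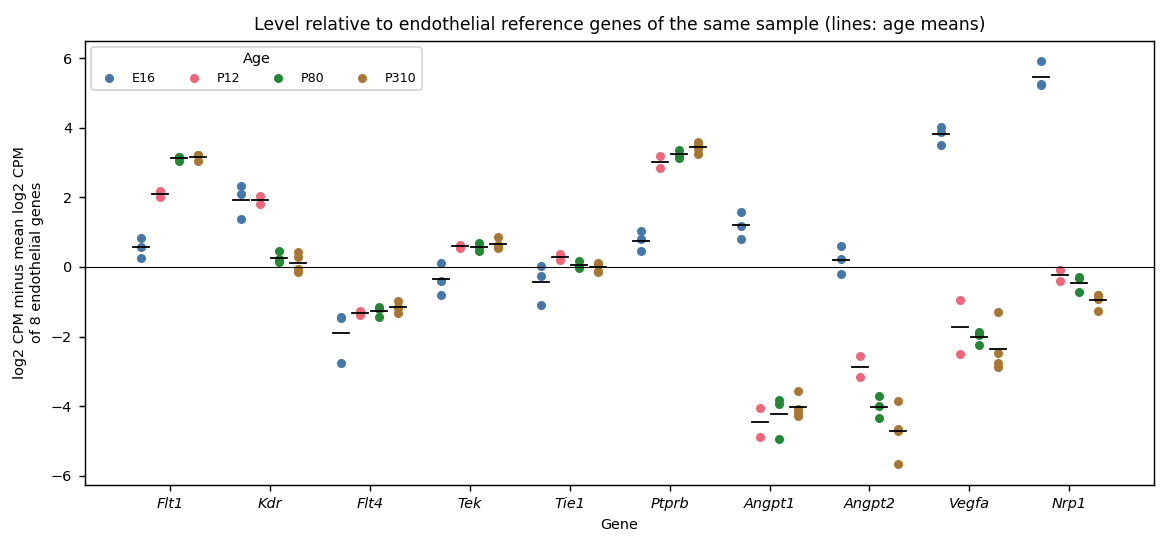
Log2 CPM of each gene minus the mean log2 CPM of 8 endothelial genes in the same sample, by gene, with the 4 ages side by side, 1 point per sample and a line at each age mean. Values are to be compared across ages within a gene: Flt1 is higher and Kdr lower in all 7 adult samples than in both P12 samples, while Tek lies between 0.46 and 0.86 in all postnatal samples.

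Levels of different genes were compared per length, as counts per kilobase scaled to a common total (TPM). At E16 the order was Nrp1 (8.80 ± 1.30 TPM), Vegfa (6.43 ± 1.71), Angpt1, Kdr, Angpt2, Tek, Tie1, Ptprb, Flt1 and Flt4 (0.0636 ± 0.0391). Nrp1 exceeded Vegfa and Vegfa exceeded Angpt1 in 3 of 3 samples, whereas Angpt1 exceeded Kdr, and from Tek down to Flt1 each gene exceeded the next, in only 2 of 3, so these orders are not settled. At P12 the endothelial genes led, with Ptprb (94.8 ± 27.8 TPM) first, then Kdr (64.4 ± 1.92), Tek (49.3 ± 8.82), Flt1 (48.0 ± 2.28) and Tie1 (38.0 ± 8.30). Tek and Flt1 changed places between the 2 P12 samples, and Kdr stood above Flt1 there only after scaling by length. At P80 Kdr, at 30.8 ± 2.89 TPM, stood behind Ptprb (165 ± 33.9), Flt1 (149 ± 12.1), Tek (73.2 ± 13.03) and Tie1 (48.8 ± 9.12). Ptprb exceeded Flt1 in 2 of 3 samples, and from Flt1 down to Nrp1 each gene exceeded the next in 3 of 3. The same 5 genes led at P310 in the same order, each above the next in 4 of 4 samples. The low end at both adult ages held Nrp1, Vegfa, Flt4 and the angiopoietins, with Angpt2 above Angpt1 in all P80 samples and in 2 of 4 P310 samples.

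**Figure D5:**
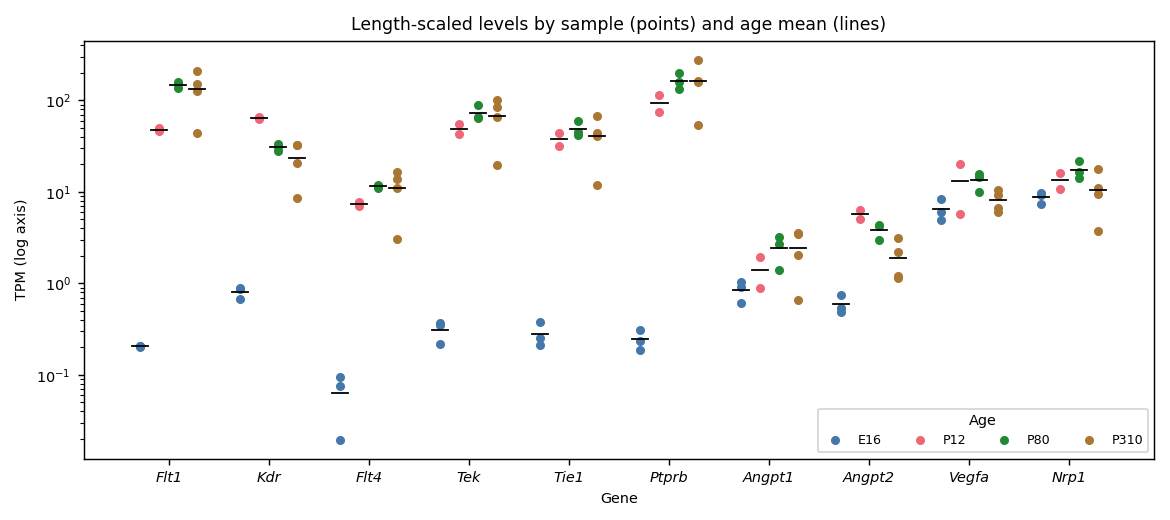
Length-scaled level (TPM, log axis) of each gene, with the 4 ages side by side, 1 point per sample and a line at each age mean. Nrp1 and Vegfa lead at E16, Ptprb leads at the 3 later ages, and Kdr is second at P12 and behind Flt1, Tek and Tie1 as well at P80 and P310.

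Over the 9 postnatal samples, the members' log2 CPM were also compared with each other and with the 10267 genes of at least 10 CPM, as a description. The points share their library and its content of vessel RNA, and they pool P12, P80 and P310. A high or low correlation can thus restate a step between ages, such as that of Kdr and Flt1 after P12. Within ages, both of these genes were higher in P12 replicate 1 and lowest at P310 in replicate 2, while at P80 their lowest samples differed. Between members, Pearson's r was highest for Flt4 and Tek (0.92), followed by Tek with Tie1 (0.80) and Flt1 with Ptprb (0.79), and lowest for Flt1 and Kdr (-0.75). Kdr was closest to Tfrc (r = 0.99), the transferrin receptor of the blood-brain barrier, which averaged 465 CPM at P12, 101 at P80 and 81.8 at P310, then to Ncapd2 and Lxn. Flt1 was closest to Tns1 (r = 0.99), a focal adhesion protein, Jcad (0.99), an endothelial junction protein, and Adgrf5 (0.98). Tek was closest to Iqgap1, Farsb and Ece1 (r of 0.98, 0.96 and 0.96), Flt4 to Farsb, Rnf144b and Slc12a4 (0.95 for each), and Tie1 to Lsr (0.97), a protein of tricellular junctions, Gm4673 and Adgra2. Ptprb was closest to Zfp592, Epas1 and Map4k3 (r of 0.95 for each), of which Epas1 is a hypoxia-inducible factor abundant in endothelium. The nearest genes were Serinc5, Hacd3 and Snx4 for Angpt2 (0.97, 0.96 and 0.96), Nqo2, Nipal2 and Fam189b for Angpt1 (0.94, 0.93 and 0.93), Gm3764, Dlgap4 and Lrp3 for Vegfa (0.96, 0.95 and 0.93) and Coasy, Rsl1d1 and Mknk2 for Nrp1 (0.96, 0.95 and 0.95).

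Other genes of these pathways were taken from lists of known partners and targets, and their counts at P12 over E16 stand beside 16.7% of all genes called higher and 10.5% lower. Among 10 further VEGF-family ligands, co-receptors and semaphorins, 3 were called higher at P12 than at E16 and none lower, with a list median log2 change of 0.84 against 0.09 over all genes. They were Vegfc, a ligand of Flt4 (35.5 ± 9.98 CPM at P12, against 2.41 ± 1.53 CPM at E16), Plxnd1, a semaphorin receptor that restrains VEGF signalling (423 ± 47.8 against 39.6 ± 4.18), and Sema3g, a semaphorin of arterial endothelium (193 ± 37.2 against 1.36 ± 0.197). Of 7 partners of the angiopoietin receptors with enough counts, out of 8 listed, 5 were called higher at P12 and none lower, with a median of 2.67. Foxo1, the transcription factor that Tek signalling inactivates, had 101 ± 6.88 CPM at P12 and 11.1 ± 2.40 CPM at E16, and the angiopoietin-binding integrin subunit Itga5 had 110 ± 4.51 CPM at P12 and 8.49 ± 0.384 CPM at E16. No gene of either list was called between postnatal ages.

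Of 14 genes that relay the signal of VEGF receptors, 4 were called higher at P12 than at E16 and none lower, where 27.2% of all genes were called in either direction, with a median log2 change of 0.17 against 0.09 over all genes. They were Nos3, the endothelial nitric oxide synthase (370 ± 18.1 CPM at P12, against 1.46 ± 0.830 CPM at E16), the adaptors Pxn and Nck1, and Hspb1, of which Nck1 was not called without P12 replicate 1 (edgeR adjusted p = 0.209). Plcg1, which binds activated Kdr directly, had 245 ± 12.4 CPM at P12 and 238 ± 21.7 CPM at E16 and was not called. No relay gene was called between postnatal ages.

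Of 14 genes of tip cells, the leading cells of vessel sprouts, and of genes induced by VEGF, 8 were called higher at P12 than at E16 and none lower, including the Notch ligand Dll4 (107 ± 7.98 against 3.74 ± 0.751 CPM) and the receptor Unc5b. At P80, 2 were called lower than at P12 (1.02% of all genes) and 1 higher (0.406%), with a median of -0.43 against -0.03 over all genes. Apln, a peptide of sprouting endothelium, had 4.84 ± 1.91 CPM at P80, against 90.8 ± 51.2 CPM at P12 (edgeR adjusted p = 0.0438), and the basement membrane gene Nid2 had 36.7 ± 6.70 against 153 ± 43.0 CPM (edgeR adjusted p = 0.00523). The immediate-early gene Nr4a1 went the other way, with 117 ± 28.3 against 32.1 ± 4.56 CPM (edgeR adjusted p = 0.0464). At P310 these 3 genes were called in the same directions against P12, which both comparisons share, and the chemokine receptor Cxcr4 was called lower, with 2.74 ± 1.48 CPM against 14.5 ± 7.17 CPM at P12. When P12 replicate 1 was left out, none of the 3 calls at P80 held (edgeR adjusted p = 0.277 for Apln, 0.103 for Nid2 and 0.539 for Nr4a1), and of the 4 at P310 the 1 that held was Nid2 (edgeR adjusted p = 0.0275).

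Of 17 genes of the hypoxia response, which governs Vegfa in many cells, 5 were called higher at P12 than at E16 and 1 lower, with a median of 0.14 against 0.09 over all genes, and 4 of the 6 calls held without P12 replicate 1. Epas1 had 2109 ± 145 CPM at P12, against 23.1 ± 10.5 CPM at E16, and the glycolytic gene Pgk1 went the other way, with 44.5 ± 18.1 against 98.0 ± 20.1 CPM. At P80 the 1 call against P12 was Ndrg1, which also marks oligodendrocytes, at 304 ± 40.7 against 97.5 ± 1.40 CPM, and it held without P12 replicate 1 (edgeR adjusted p = 0.0482). Of 6 regulators of angiogenesis (Vash1, Vash2, Thbs1, Thbs2, Timp3 and Sparc), 3 were called higher at P12 than at E16 and 1 lower, with a median log2 change of 2.19 against 0.09 over all genes. At P80 against P12, Timp3, which blocks VEGF-A binding to Kdr, was called higher (503 ± 72.7 against 218 ± 10.005 CPM, edgeR adjusted p = 0.0360) and Sparc lower (394 ± 6.81 against 1382 ± 304 CPM, edgeR adjusted p = 0.00253). With P12 replicate 1 left out, the adjusted p was 0.290 for Timp3 and 0.0445 for Sparc.

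The genes of other cell types that moved beside Kdr and Flt1 after P12 were counted too. Of 6 markers of brain capillaries, 3 were called lower at P80 than at P12 (1.02% of all genes) and the same 3 at P310 (1.79% of all genes), the transporters Slc16a1 and Mfsd2a and Tfrc, and their list summed to 499 to 593 CPM at P80, against 1588 to 2714 CPM at P12. Mfsd2a was not called at P80 without P12 replicate 1 (edgeR adjusted p = 0.589), while the other 5 of these calls held. Slc16a1 was the largest part of the P12 sums, with 1447 and 873 CPM, against 82.3 to 128 CPM at P80. Of the capillary markers not called, Slc22a8 lay lower at P80 (103 to 131 CPM, against 218 and 148 CPM). Car4 (99.1 to 182 CPM at P80, 176 and 94.3 CPM at P12) and Rgcc (15.9 to 27.9 CPM, 23.3 and 11.8 CPM) overlapped. Of 7 arterial, 6 venous and 12 mural markers, none was called between P80 and P12, while 1 venous marker was called lower at P310 than at P12, a call lost without P12 replicate 1. Astrocyte markers summed to 1363 to 2049 CPM at P80 and 780 to 1660 CPM at P310, against 2919 to 3401 CPM at P12, with 1 of 10 called lower at P80 and 3 at P310. Fibroblast markers summed to 256 to 495 CPM at P80 and 203 to 420 CPM at P310, against 1048 to 1796 CPM at P12, with 1 of 6 called lower at P80 and 3 at P310. Of 8 immature neuron markers 3 were called lower at each adult age, with sums of 92.5 to 110 CPM at P80 and 99.4 to 138 CPM at P310, against 239 to 258 CPM at P12. Of the 11 OPC markers, whose sums are given above, 1 was called lower at P80 and 3 at P310. Leaving out P12 replicate 1 ended the calls of Aqp4 at P80 (edgeR adjusted p = 0.150) and of Slc1a3 (0.0705) and Col1a1 (0.0765) at P310, and the other calls of these 4 lists held. Microglial markers summed to 328 to 1105 CPM at P80 and 275 to 1013 CPM at P310, against 871 to 948 CPM at P12, with none called. The part of these cells in the changes of the 10 genes was not tested.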

How the data were processed

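Per the labels' protocols, OPCs were enriched from brain with magnetic beads against PDGFRα, and libraries were made with a stranded low-input total RNA kit. The deposited files hold raw gene counts, which the authors made with featureCounts 1.5.0-p1 over exons of Ensembl release 92 on GRCm38, per the file headers. By the same headers, multi-mapped reads and reads over several genes counted for all of them, strand was ignored and an overlap of 10 bases sufficed. The submitters' processing notes name Trim Galore and TopHat2 2.1.1. Of the 37785 gene identifiers, 37715 were named from GENCODE M21.

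The 12 samples were fitted together in edgeR 4.0.16 (R 4.3.3), with filterByExpr by age, TMM scaling, a mean per age and the robust quasi-likelihood F test. The common biological coefficient of variation was 0.513. Fold changes are later over earlier age, SE is the log2 change divided by the square root of F, and p-values were adjusted by Benjamini-Hochberg over 21170 genes with a threshold of 0.05. Levels relative to the vessel lining used log2 CPM with a prior count of 2 and exact permutation tests. Pairs of ages were tested in scipy 1.17.1, and the F statistic over all 1260 arrangements in numpy 2.4.6. The p-values of the F statistic are given unadjusted and adjusted over all genes, in place of an adjustment over the 10 genes that had been planned. TPM used the length column of the files. Promoter windows are RefSeq sequences on GRCm38.p6. The test was tried on simulated counts.

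The 10 genes and all lists were chosen with earlier results of these data known. Named genes are the 10 members, up to 3 called genes per list and comparison with the smallest adjusted p plus those against their list's direction, and the 3 genes of at least 10 CPM with the highest r to each member. Nck1, Plcg1 and the genes of other cell types were named after their values were seen. Alternatives were RLE and upper quartile size factors, no filter or 1 CPM in 3 samples, DESeq2 1.42.0, voom in limma 3.58.1, fits to a single pair of ages, the replicate number as a block, omission of mitochondrial, ribosomal and haemoglobin genes, P12 replicates 2 and 3 as separate samples, and omission of each sample. For the levels relative to the vessel lining they were Pecam1 alone, summed CPM and a prior count of 0.5. Leaving out P12 replicate 1 and P310 replicate 2 together was added after seeing the data, as were the list genes without P12 replicate 1.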

Additional observations from a re-analysis of the deposited data

Results flagged for a closer look

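The 4 P310 samples were checked for a sample far from the others in 24 sets of values, namely the CPM of the 10 genes, their levels relative to the vessel lining and the 4 ratios. In 2 sets such a sample was found, and chance marks about 5% of sets. Vegfa at P310 had 75.1 CPM in replicate 2, the highest of the age, against 44.0 to 49.3 CPM in the other samples, and replicate 2 is the library with 39223 CPM of Mbp. Whether its myelin content has a part in the Vegfa value was not tested. Flt1 relative to the vessel lining at P310 was 3.05 on the log2 scale in replicate 3, the lowest of the age, against 3.21 to 3.22 in the others.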

How the results depend on the processing

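The 7 calls at P12 over E16 held in all 23 alternatives, and Vegfa was called there as well in 5 of 23. Kdr was called lower at P80 than at P12 in 20 of 23 and at P310 in 21 of 23, and Flt1 higher at P310 in 17 of 23 and at P80 in 8 of 23. The number of the 10 genes called for P80 against P12 was 2 with no filter, with DESeq2, with limma-voom, with only the 2 ages compared, without mitochondrial, ribosomal and haemoglobin genes, and with P12 replicates 2 and 3 apart, and 0 to 2 when 1 sample was left out. For P310 against P12 it was 4 with limma-voom, 1 with only the 2 ages compared, and 1 to 2 with 1 E16, P80 or P310 sample left out. The number past the exact test on levels relative to the vessel lining was 1 to 5 with 1 sample left out.

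Over all genes, 301 were called for P80 against P12. This became 877 with no filter, 637 with DESeq2, 490 with limma-voom, 521 with P12 replicates 2 and 3 apart, 169 without P12 replicate 1 and P310 replicate 2 together, and 71 to 446 with 1 sample left out. For P310 against P12, 531 became 1285 with no filter, 1065 with DESeq2, 947 with limma-voom, 173 with only the 2 ages, 1012 with the P12 replicates apart, 247 without that pair of samples, and 158 to 683 with 1 left out. For P310 against P80, 0 became 423 with no filter, 28 with DESeq2, and 0 to 1 with 1 left out. For P12 against E16, 5765 became 3748 to 6553 with 1 left out. The cause of these shifts was not tested.

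Directions that turned belonged to differences that had not been called. With 1 sample left out, the log2 difference for P80 against P12 ran from -0.0396 to 0.38 for Flt4, -0.0221 to 0.22 for Tek, -0.18 to 0.0443 for Tie1 and -0.79 to 0.45 for Vegfa. For P310 against P80 it ran from -0.18 to 0.0302 for Kdr and -0.14 to 0.20 for Tie1, and for P310 against P12 from -0.25 to 0.14 for Tie1 and -1.07 to 0.17 for Vegfa. Without P12 replicate 1 and P310 replicate 2 together it was 0.0283 for Kdr (P310 against P80) and 0.18 for Tie1 (P310 against P12), and limma-voom gave 0.12 for Tie1 there too. Relative to the vessel lining, P310 minus P12 ran from 0.11 to 0.22 for Flt4, -0.00758 to 0.10 for Tek and -1.40 to 0.14 for Vegfa. With Pecam1 alone as the reference it was -0.0659 for Flt4 and -0.17 for Tek.

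With the replicate number as a block, 5368, 243, 0 and 392 genes were called for P12 against E16, P80 against P12, P310 against P80 and P310 against P12, and 7, 1, 0 and 1 of the 10 genes. In the block fit Flt1 at P310 over P12 had an adjusted p of 0.0960, and Tie1 turned to -0.0434 for P310 against P80. Whether the numbers pair the samples was not settled. Deviations from the age means of the 15 same-numbered pairs correlated at -0.09 to 0.21. The 3 over 0.1 were all between samples numbered 2, and 5 of 12 samples correlated best with their own number. No chance level was worked out for these values. The summed P12 sample was taken as number 2 only, and the deviations of the 2 P12 samples mirror each other by construction. P12 has 2 samples, and leaving 1 out assumes that the other varies like the rest.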

Other observations

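Among the regulators of angiogenesis, the 2 genes called at P80 against P12 were called in the same direction at P310, which shares the P12 samples. Timp3 had 514 ± 107 CPM at P310, against 218 ± 10.005 CPM at P12 (edgeR adjusted p = 0.0172), and Sparc, a matrix protein made by endothelium and glia, had 267 ± 75.9 CPM, against 1382 ± 304 CPM (edgeR adjusted p = 7.18e-05). Leaving out P12 replicate 1 gave an adjusted p of 0.185 for Timp3 and 0.00201 for Sparc. Vash2, a vasohibin that, unlike Vash1, is known to promote vessel growth, was the regulator called lower at P12 than at E16, with 3.09 ± 0.0250 CPM against 60.6 ± 4.72 CPM (edgeR adjusted p = 0.00289). Ndrg1, a stress-responsive gene of the hypoxia list, had 329 ± 52.7 CPM at P310, against 97.5 ± 1.40 CPM at P12 (edgeR adjusted p = 5.34e-04, and 0.0175 without P12 replicate 1).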
